A study of Mus musculus with 12 samples.

Results

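The mRNAs of 8 enzymes of fatty acid desaturation and elongation were followed in mouse liver. These 8 were chosen by the function of their products, with earlier results of these data known. They were the desaturases Fads1, Fads2, Fads3 and Scd2 and the elongases Elovl1, Elovl2, Elovl3 and Elovl5, which made up 8 of the 36047 genes to which transcripts were assigned. All 8 passed the filter on low counts and were among the 14670 genes tested. Messenger RNA was sequenced from the livers of 12 adult male C57Bl/6J mice, 3 in each of 4 groups, after 7 days on a diet. RF.Ctrl mice ate a regular-fat control diet and RF.SAAR mice a regular-fat diet restricted in sulfur amino acids. HF.Ctrl and HF.SAAR mice ate the high-fat versions of the control and restricted diets. All 4 diets were free of cysteine, and the SAAR diets held less methionine with glutamic acid in its place. The mice were housed singly and were deprived of food for some hours before the liver was taken. The study also labelled its mice with deuterium, given by injection at the start and then in the drinking water. Regular-fat and high-fat diets came from different suppliers, so fat content and supplier cannot be told apart. The design asked what SAAR did to liver mRNA at each fat level, what fat did within each diet, and whether the SAAR effect depended on fat.

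Polyunsaturated fatty acids are made from dietary linoleic and alpha-linolenic acid by alternating steps of desaturation and elongation in the endoplasmic reticulum. Fads2 encodes the delta-6 desaturase that opens the pathway, Elovl5 and Elovl2 encode elongases of its intermediates, and Fads1 encodes the delta-5 desaturase that makes arachidonic and eicosapentaenoic acid. Elovl1 and Elovl3 encode elongases of saturated and monounsaturated chains, Scd2 encodes a delta-9 desaturase that makes monounsaturated acids, and Fads3 encodes a desaturase of sphingoid bases. The liver is a main site of this synthesis, and the pathway genes are known targets of SREBP-1c, LXR and PPARA.

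Total estimated counts per mouse ranged from 16203094 to 21230092. Hepatocyte markers summed to between 73865 and 94915 CPM, counts scaled to the library total, over 10 genes, so the labelled tissue was seen in every library. Markers of pancreatic acinar cells, which make digestive enzymes, summed over 34 genes to 84.4 to 1755 CPM in RF.Ctrl, 50.1 to 108.9 CPM in RF.SAAR, 84.9 to 6713 CPM in HF.Ctrl and 81.4 to 21960 CPM in HF.SAAR. The 3 highest libraries were HF.SAAR mouse 3, HF.Ctrl mouse 2 and HF.SAAR mouse 2, and 1 of the 34 genes was at 0 in every mouse of a group in all groups but HF.SAAR. Mice are numbered within a group by the order of their sample titles, since the labels give no replicate numbers, and some transcripts differed by this number in all 4 groups, as given with Scd2. In whole liver, fewer cells of a type and less RNA per cell cannot be told apart. In the following, values by mouse are given in the order mouse 1, mouse 2 and mouse 3 and are normalised CPM, in which the library total was scaled by trimmed mean of M-values (TMM). Differences are log2 fold changes ± standard error (SE) from the edgeR quasi-likelihood test, with p-values adjusted over all 14670 genes and called at an adjusted p under 0.05.

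The FADS genes form a cluster on chromosome 19 of GRCm38, with Fads3 at 10041569 to 10060110 on the plus strand, Fads2 at 10062765 to 10101746 on the minus strand and Fads1 at 10182888 to 10196877 on the plus strand. Fads3 and Fads2 are separated by 2654 bases and Fads2 and Fads1 by 81141 bases. Scd2 at 44293674 to 44306864 and Elovl3 at 46131897 to 46135694 lie on the same chromosome, both on the plus strand. Elovl1 is on chromosome 4 at 118428093 to 118432953 on the plus strand. Elovl2 is on chromosome 13 at 41182381 to 41220405 on the minus strand, and Elovl5 is on chromosome 9 at 77917364 to 77984519 on the plus strand. The end of Elovl1 overlaps Cdc20 on the opposite strand by 53 bases and Elovl3 overlaps Pitx3 on the opposite strand by 10 bases, and these neighbours had mean estimated counts of 8.92 and 27.1.

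Elovl2 and Elovl5 encode the elongases of the polyunsaturated pathway and are shown by the 250 bases before their start sites because Elovl2 had a low permutation p for SAAR and Elovl5 one for fat, as given later. The sequences are those of RefSeq on GRCm38.p6, 5′ to 3′ along the gene, for chr13:41220404-41220653 on the minus strand and chr9:77917115-77917364 on the plus strand. Capitals mark letters matching any of the motifs searched on both strands. RefSeq windows were at hand for 5 of the 8 genes, and Fads1, Elovl3 and Scd2 were not among them.
Elovl2: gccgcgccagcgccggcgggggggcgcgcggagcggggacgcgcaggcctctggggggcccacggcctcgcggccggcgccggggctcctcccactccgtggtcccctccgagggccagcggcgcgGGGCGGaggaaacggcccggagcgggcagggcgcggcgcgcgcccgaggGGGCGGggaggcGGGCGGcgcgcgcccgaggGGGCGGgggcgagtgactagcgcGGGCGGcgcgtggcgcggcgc
Elovl5: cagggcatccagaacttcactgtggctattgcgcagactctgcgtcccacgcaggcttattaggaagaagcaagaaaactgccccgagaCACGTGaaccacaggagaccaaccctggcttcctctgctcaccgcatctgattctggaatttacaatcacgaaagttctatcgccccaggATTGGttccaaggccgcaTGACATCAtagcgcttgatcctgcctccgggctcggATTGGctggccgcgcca
The motifs were the CCAAT box, the GC box with the letters GGGCGG, the E-box with the letters CACGTG, the cAMP response element TGACGTCA, the bZIP element TGANNTCA that includes it, the sterol response element TCACNCCAC, the direct repeat 1 of nuclear receptors and the C/EBP-ATF composite element TGATGNAAN. The Elovl2 window was 87.2% G or C, against a median of 52.4% over 32851 RefSeq windows of the same length, and held 5 matches, all to GGGCGG, which 32.7% of windows held. The Elovl5 window was 55.6% G or C and held the CCAAT box on the minus strand at 2 places, the E-box at 1 and the bZIP element at 1. The CCAAT box was found in 33.8% of all windows, the E-box in 6.02% and the bZIP element in 11.9%. The cAMP response element, the sterol response element, the direct repeat 1 and the composite element were in 1.55%, 1.05%, 0.0335% and 3.44% of windows and in neither of these 2. The RefSeq window of Fads2 lies with 243 of its 250 bases inside the annotated Ensembl gene and is not printed. A second RefSeq window of Elovl2, from another start site, was 79.6% G or C and held none of the motifs. It also lies with 243 of its 250 bases inside the annotated gene and is not printed.

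Per transcript length, 5 of the genes were of similar level and 3 were far lower. Mean levels over the 12 mice were 174.7 ± 57.0 TPM (SD, n = 12) for Fads2, 154.1 ± 72.6 TPM for Elovl3, 137.9 ± 35.2 TPM for Elovl2, 124.9 ± 38.3 TPM for Fads1 and 87.3 ± 27.3 TPM for Elovl5. The ranges over mice of each neighbouring pair in this order overlapped. Within a mouse, Fads2 was above Fads1 and Fads2, Elovl3 and Elovl2 were each above Elovl5 in 12 of 12 mice, and Fads1 was above Elovl5 in 11. The place of Elovl3 varied, as it was below Fads2 in 8 mice and above Elovl2 in 7. Elovl1 followed at 25.0 ± 4.82 TPM, and its highest mouse, at 30.2 TPM, was below the lowest Elovl5 value of 48.9 TPM. Fads3 had a mean of 8.40 ± 5.46 TPM and overlapped Elovl1 through its highest mouse of 23.0 TPM. Scd2 was lowest with 1.83 ± 0.652 TPM, and its highest mouse, at 3.37 TPM, was below the lowest Fads3 value of 4.21 TPM. TPM are not scaled between mice, and the median deviation of log2 TPM over the tested genes ranged from -0.39 to 0.27 across mice, with a median difference of 0.28 between SAAR and Ctrl mice. TPM are therefore used here to compare genes, or as ratios within a mouse, and not to compare the level of a gene between groups.

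**Figure D1:**
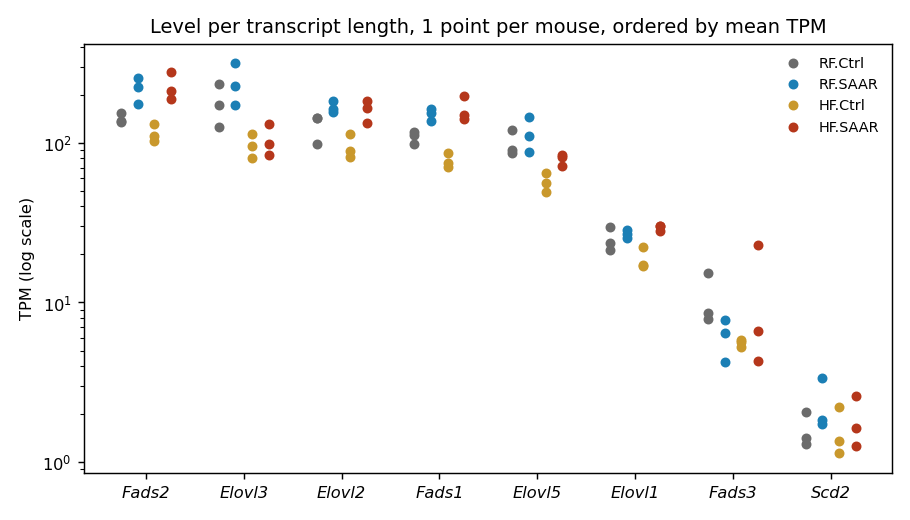
Level of each gene in TPM (log axis), 1 point per mouse, coloured by group and ordered by mean TPM over 12 mice. Fads2, Elovl3, Elovl2, Fads1 and Elovl5 overlap, with means from 87.3 to 174.7 TPM, and Scd2 lies lowest at 1.83 TPM.

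Fads1 was higher in SAAR than in Ctrl livers, by 1.64 times in mean CPM on the high-fat diets and by 1.36 times over both fat levels. The 3 RF.Ctrl mice had 333, 351 and 381 CPM and the RF.SAAR mice 339, 470 and 406 CPM. The HF.Ctrl mice had 248, 313 and 263 CPM and the HF.SAAR mice 409, 438 and 506 CPM. Every HF.SAAR mouse was above every HF.Ctrl mouse, every HF.Ctrl mouse was below every RF.Ctrl mouse, and the RF.SAAR mice overlapped the RF.Ctrl mice. Of all tested genes, 8.88% had HF.SAAR mice all above HF.Ctrl mice and 4.43% had HF.Ctrl mice all below RF.Ctrl mice. Group means were 355 ± 24.1 (SD, n = 3), 405 ± 65.3, 275 ± 34.2 and 451 ± 49.8 CPM for the control and SAAR diets of regular and then of high fat. Fads1 passed the test in HF.SAAR versus HF.Ctrl, with a log2 fold change of 0.71 ± 0.13 and an adjusted p of 0.01405. It was the 1 of 8 genes called in that comparison, in which 1.97% of all tested genes were called and 1.01% were called higher. In RF.SAAR versus RF.Ctrl the log2 fold change was 0.19 ± 0.13 with an adjusted p of 0.611, and none of the 8 genes was called or had an unadjusted p under 0.05, where 1.48% of all tested genes were called and 13.5% had such a p. DESeq2 also called 0 of the 8 there. Averaged over both fat levels, Fads1 was higher in SAAR by 0.45 ± 0.09 with an adjusted p of 0.0107.

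The SAAR effects on Fads1 at the 2 fat levels differed by 0.53 ± 0.19 on the log2 scale, with an unadjusted p of 0.01395 and an adjusted p of 0.999, so no difference between them was called. Of all tested genes 0.00682% were called for this interaction. Of the 8 genes, 2 had an unadjusted p under 0.05, Fads1 and Elovl1, as did 3.15% of all tested genes, and DESeq2 called 0. The call in HF.SAAR versus HF.Ctrl was lost without HF.Ctrl mouse 1, HF.Ctrl mouse 3 or HF.SAAR mouse 3, with adjusted p of 0.0873, 0.0595 and 0.0618 and log2 fold changes of 0.65, 0.68 and 0.62. Without the 3 libraries highest in pancreatic acinar markers, which left 1 HF.SAAR mouse that is assumed to vary like the other groups, the log2 fold change was 0.66 ± 0.18. With the acinar genes taken out before scaling and all mice kept, Fads1 was still called in HF.SAAR versus HF.Ctrl. Macrophage markers summed to 411, 508 and 448 CPM in HF.Ctrl and 518, 685 and 649 CPM in HF.SAAR over 12 genes, none of them called, and the part of cell makeup in the Fads1 result was not tested.

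Fads2 was higher in SAAR than in Ctrl livers over both fat levels, by 1.41 times in mean CPM. Values on regular fat were 441, 392 and 460 CPM in RF.Ctrl and 410, 623 and 632 CPM in RF.SAAR. Those on high fat were 337, 507 and 317 CPM in HF.Ctrl and 540, 580 and 688 CPM in HF.SAAR. The HF.SAAR mice lay above all HF.Ctrl mice, and 2 of 3 RF.SAAR mice lay above all RF.Ctrl mice while mouse 1 was within their range. Group means were 431 ± 35.2 (SD, n = 3) in RF.Ctrl, 555 ± 126 in RF.SAAR, 387 ± 104 in HF.Ctrl and 602 ± 76.4 CPM in HF.SAAR. Fads2 passed the test over both fat levels, with a log2 fold change of 0.50 ± 0.14 and an adjusted p of 0.0461. Fads1 and Fads2 were the 2 of 8 genes called in this comparison, in which 6.91% of all tested genes were called and 3.21% were called higher. Within the fat levels Fads2 was not called, with 0.64 ± 0.19 and an adjusted p of 0.1405 on high fat and 0.36 ± 0.19 and an adjusted p of 0.464 on regular fat. The Fads2 call was close to its threshold and was lost in 10 of the 12 fits that left out 1 mouse, whose log2 fold changes ranged from 0.44 to 0.62 and adjusted p from 0.00833 to 0.115. It was kept without RF.SAAR mouse 1 or HF.Ctrl mouse 2. Without the 3 libraries highest in acinar markers, the values over both fat levels were 0.54 ± 0.14 for Fads2 and 0.43 ± 0.11 for Fads1, with adjusted p of 0.0722 and 0.0769.

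The ratio of the delta-5 to the delta-6 desaturase mRNA overlapped between all 4 groups. The ratio of Fads1 to Fads2 in TPM was 0.773 ± 0.0573 (SD, n = 3) in RF.Ctrl, 0.703 ± 0.0874 in RF.SAAR, 0.684 ± 0.106 in HF.Ctrl and 0.722 ± 0.0233 in HF.SAAR. Log2 CPM of the 2 genes had a Pearson correlation of 0.909 over the 12 mice and of 0.865 after group means were taken out, where all points share the same libraries. Of 7540 genes with a mean of at least 10 CPM, the 3 most like Fads2 over the mice were Cct2 (r = 0.936), Eif2s2 (r = 0.917) and Fads1 itself. The 3 most like Fads1 were Rpl5 (r = 0.936), Pip4p2 (r = 0.914) and Samm50 (r = 0.914).

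**Figure D2:**
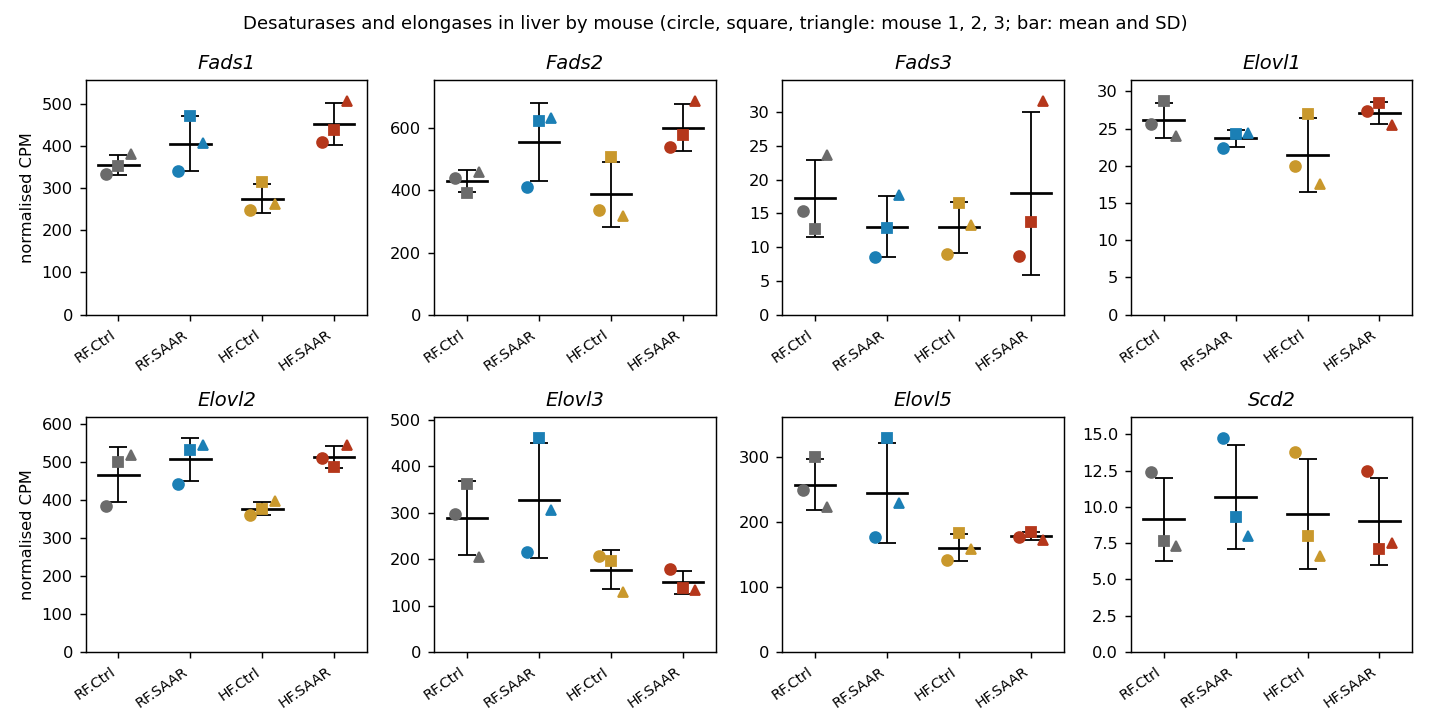
Normalised CPM of the 8 genes by group, 1 symbol per mouse (circle, square and triangle for mouse 1, 2 and 3), with the mean and SD of 3 mice as bars. Fads1 and Elovl2 in HF.SAAR lie above all HF.Ctrl mice, Elovl3 in HF.SAAR lies below all RF.SAAR mice, and Scd2 is highest in mouse 1 of every group.

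Elovl2, which extends the longest intermediates on the way to docosahexaenoic acid, had its lowest group mean in HF.Ctrl, where the mice overlapped RF.Ctrl and the difference from RF.Ctrl was not called (adjusted p of 0.9995 by edgeR). The RF.Ctrl mice had 384, 501 and 519 CPM and the RF.SAAR mice 444, 533 and 546 CPM. The HF.Ctrl mice had 361, 376 and 397 CPM and the HF.SAAR mice 511, 488 and 546 CPM. All HF.SAAR mice were above all HF.Ctrl mice, as were those of Fads1 and Fads2, and 8.88% of all tested genes had HF.SAAR mice all above HF.Ctrl mice. The log2 fold change in HF.SAAR versus HF.Ctrl was 0.45 ± 0.12 with an adjusted p of 0.0854, and over both fat levels it was 0.28 ± 0.08 with an adjusted p of 0.0654, so Elovl2 was not called. DESeq2 called both, with adjusted p of 0.0143 and 0.0207, and so did edgeR with a replicate block by title order, with 0.0221 and 0.0174. Most alternatives did not call Elovl2. It was called in 4 of 24 for HF.SAAR versus HF.Ctrl and in 5 of 23 over both fat levels. These include the 12 fits that left out 1 mouse, of which 1 called it in each comparison. Without the 3 libraries highest in acinar markers the log2 fold changes were 0.41 ± 0.20 and 0.27 ± 0.12, with 1 HF.SAAR mouse left. In RF.SAAR versus RF.Ctrl the value of Elovl2 was within 1 SE of 0. Its transcripts were nearly all of 1 kind, 98.4% of counts falling on the longer isoform.

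Elovl5, the elongase of the intermediates between the desaturase steps, had lower values on high fat and showed no called SAAR effect. Values on regular fat were 249, 299 and 222 CPM in RF.Ctrl and 176, 328 and 229 CPM in RF.SAAR. Those on high fat were 141, 183 and 158 CPM in HF.Ctrl and 177, 184 and 172 CPM in HF.SAAR. All HF.Ctrl mice were below all RF.Ctrl mice, as for Fads1, where 4.43% of all tested genes were lower without overlap. In the SAAR groups RF.SAAR mouse 1 lay within the range of the HF.SAAR mice. Over both diets, Elovl5 differed by -0.57 ± 0.13 between HF and RF, with an unadjusted p of 0.000917 and an adjusted p of 0.210, and it was not called. None of the 8 genes was called for fat over both diets, where 0.0409% of all tested genes were. An unadjusted p under 0.05 was found for 2 of the 8, Elovl3 and Elovl5, and for 5.84% of all tested genes. With a replicate block by title order Elovl5 was called, at -0.55 ± 0.09 with an adjusted p of 0.0355. DESeq2 called the Elovl5 difference with an adjusted p of 0.0093, and 124 genes in all against 6 by edgeR. Without the 3 libraries highest in acinar markers, all of them HF, it was -0.63 ± 0.20 by edgeR with an adjusted p of 1. Within the diets the differences were -0.68 ± 0.19 between HF.Ctrl and RF.Ctrl and -0.46 ± 0.19 between HF.SAAR and RF.SAAR, with adjusted p of 0.8725 and 0.8187.

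The ratio of Elovl2 to Elovl5 mRNA had its lowest group mean in RF.Ctrl and its highest in HF.SAAR. In TPM it was 1.08, 1.19 and 1.66 in the RF.Ctrl mice and 1.78, 1.12 and 1.66 in the RF.SAAR mice. It was 1.83, 1.45 and 1.75 in the HF.Ctrl mice and 2.04, 1.86 and 2.21 in the HF.SAAR mice. All HF.SAAR mice had a higher ratio than any mouse of the other 3 groups, while those 3 groups overlapped. The ratio of Fads2 to Elovl5 in TPM was 1.46 ± 0.327 (SD, n = 3) in RF.Ctrl, 1.95 ± 0.387 in RF.SAAR, 2.03 ± 0.310 in HF.Ctrl and 2.85 ± 0.411 in HF.SAAR. Its HF.SAAR mice, at 2.59, 2.63 and 3.32, were likewise above every other mouse, the highest of which was RF.SAAR mouse 3 at 2.32. Both ratios share Elovl5, and how often ratios of other gene pairs separated in this way was not counted.

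**Figure D3:**
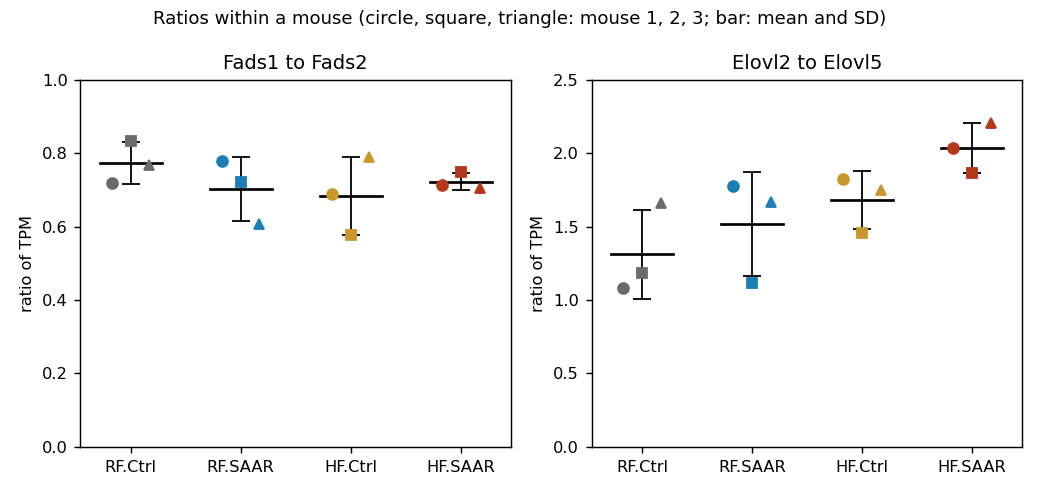
Ratio of Fads1 to Fads2 (left) and of Elovl2 to Elovl5 (right) in TPM within each mouse, with the mean and SD of 3 mice per group as bars and symbols for mouse 1, 2 and 3. The Fads1 to Fads2 ratio overlaps between all groups, and the Elovl2 to Elovl5 ratio is between 1.86 and 2.21 in HF.SAAR, above every other mouse.

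Elovl3, an elongase of saturated and monounsaturated chains that is regulated with time of day in liver, had the widest spread within groups of the 5 abundant genes, with a pooled SD of 0.41 on the log2 CPM scale. The RF.Ctrl mice had 296, 362 and 204 CPM and the RF.SAAR mice 216, 459 and 305 CPM. The HF.Ctrl mice had 206, 197 and 128 CPM and the HF.SAAR mice 179, 137 and 133 CPM. All HF.SAAR mice were below all RF.SAAR mice, where 4.68% of all tested genes were lower without overlap, and HF.Ctrl mouse 1 lay within the range of RF.Ctrl. The mean over HF mice was 0.532 times that over RF mice in CPM. The fitted difference over both diets was -0.91 ± 0.21 with an unadjusted p of 0.00125 and an adjusted p of 0.237, and between HF.SAAR and RF.SAAR it was -1.13 ± 0.30 with an adjusted p of 0.534. None of the 8 genes was called in HF.SAAR versus RF.SAAR, where 0.0477% of all tested genes were. An unadjusted p under 0.05 was found for 2 of the 8, again Elovl3 and Elovl5, and for 5.59% of all tested genes. DESeq2 called both Elovl3 differences, with adjusted p of 0.000541 and 0.0072. Without the 3 libraries highest in acinar markers they were -0.83 ± 0.32 and -0.88 ± 0.51 by edgeR, both with an adjusted p of 1. Of the 7540 genes compared, Elovl5 was the most like Elovl3 and Elovl3 the most like Elovl5, with r = 0.846 over 12 mice and 0.757 after group means were taken out.

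**Figure D4:**
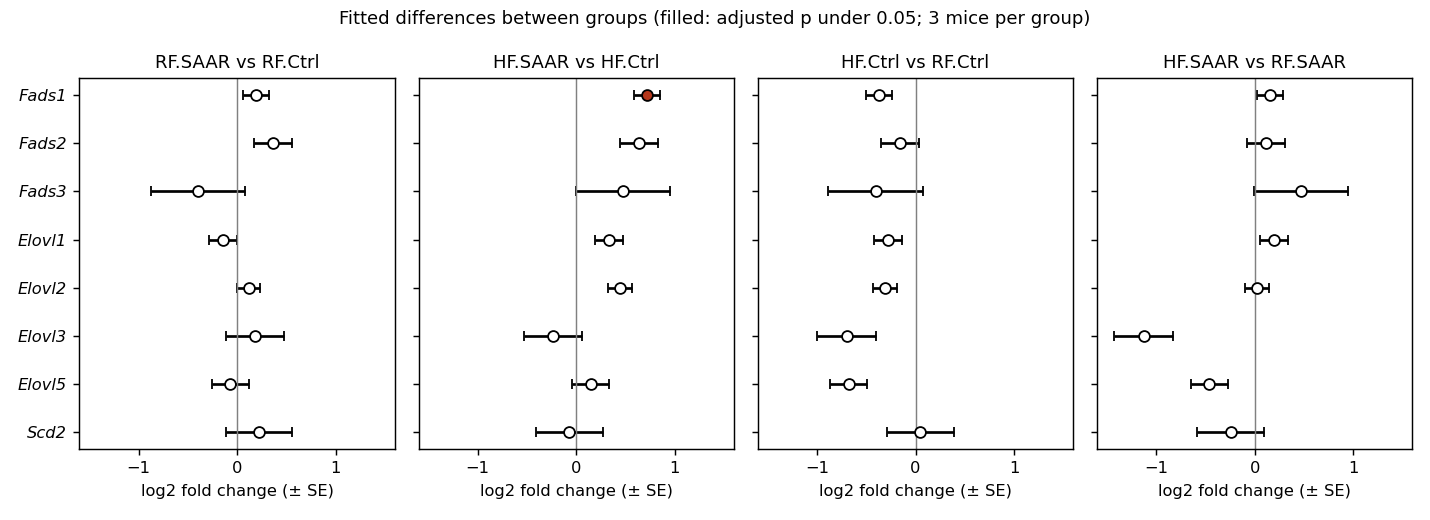
Log2 fold change ± SE of the 8 genes in 4 comparisons of 3 mice against 3, with a filled point where the adjusted p was under 0.05 and an open point otherwise. Fads1 in HF.SAAR versus HF.Ctrl, at 0.71, is the single filled point, and Elovl3 in HF.SAAR versus RF.SAAR, at -1.13, lies farthest from 0.

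Elovl1, the elongase that supplies very long chains for ceramides, ranged from 17.5 to 28.7 CPM over the 12 mice. Values on regular fat were 25.6, 28.7 and 23.9 CPM in RF.Ctrl and 22.3, 24.3 and 24.4 CPM in RF.SAAR. Those on high fat were 19.9, 27.0 and 17.5 CPM in HF.Ctrl and 27.3, 28.4 and 25.5 CPM in HF.SAAR. All HF.SAAR mice were above all RF.SAAR mice, where 5.47% of all tested genes were higher without overlap, yet the fitted difference was 0.19 ± 0.14 with an adjusted p of 0.9868. In HF.SAAR versus HF.Ctrl the log2 fold change was 0.33 ± 0.14 with an adjusted p of 0.334. Of the 12 fits that left out 1 mouse, 11 did not call it. The 1 that did was without HF.Ctrl mouse 2, at 0.53 with an adjusted p of 0.0423. Over these 12 fits the log2 fold change ranged from 0.21 to 0.53 and the adjusted p reached 0.648. The interaction value was 0.47 ± 0.20 with an unadjusted p of 0.0322 and an adjusted p of 0.999. Counts of Elovl1 were divided over 4 main isoforms with 50.7%, 24.8%, 11.3% and 10.5% of the total. The share of the second ranged from 0% to 42.3% between mice, so isoform shares were not compared between groups.

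Fads3 had low and scattered values. Values on regular fat were 15.3, 12.7 and 23.6 CPM in RF.Ctrl and 8.58, 12.8 and 17.7 CPM in RF.SAAR. Those on high fat were 9.01, 16.6 and 13.2 CPM in HF.Ctrl and 8.69, 13.6 and 31.6 CPM in HF.SAAR. All groups overlapped, and the highest value was that of HF.SAAR mouse 3, the mouse with the highest pancreatic acinar sum of 21960 CPM. The same mouse had the highest value of Fads1, Fads2 and Elovl2, at 506, 688 and 546.31 CPM, the last beside 546.05 CPM in RF.SAAR mouse 3. It was not the highest for Elovl1, Elovl3, Elovl5 or Scd2. In HF.SAAR the coefficient of variation was 67.1%, and it was 33.1% in RF.Ctrl. In HF.SAAR versus HF.Ctrl the value was within 1 SE of 0, and without the 3 libraries highest in acinar markers it was -0.38 ± 0.48 with an adjusted p of 0.9445. The protein-coding transcript held 63.2% of Fads3 counts, and a transcript annotated as a retained intron held 32.8%, with 24.5% to 44.3% by mouse.

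Scd2, a delta-9 desaturase best known from brain and the developing liver, was highest in mouse 1 of every group and was called in no comparison. The RF.Ctrl mice had 12.4, 7.67 and 7.29 CPM and the RF.SAAR mice 14.7, 9.28 and 7.96 CPM. The HF.Ctrl mice had 13.8, 8.01 and 6.65 CPM and the HF.SAAR mice 12.4, 7.08 and 7.49 CPM. The 4 groups overlapped throughout. All 7 fitted values were within 1 SE of 0. Scd2 shares sequence with Scd1, and whether the counting split reads between them was not tested. Mean Scd1 was 1105 CPM in RF.Ctrl and 29.8 CPM in HF.SAAR. Scd2 ranged from 7.29 to 12.4 CPM in RF.Ctrl and from 7.08 to 12.4 CPM in HF.SAAR.

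The genes most like Scd2 over the 12 mice were Pfkp (r = 0.949), Stmn2 (r = 0.923) and Calm3 (r = 0.917), of which Stmn2 encodes a neuronal microtubule regulator. A list of 17 neuron markers was therefore summed, chosen after these values were seen. It came to 189 to 213 CPM in the 4 mice numbered 1, 77.7 to 93.6 CPM in those numbered 2 and 38.7 to 67.1 CPM in those numbered 3, in all 4 groups alike. Of these 17 genes 16 were highest in mouse 1 of every group, as were 5.56% of all tested genes. Stmn2 had 418 to 464 estimated counts in the 4 mice numbered 1 and 95 to 232 in the others. The sample titles run in order from the mice numbered 1 to those numbered 3, with 1 mouse of each group in each run of 4. The origin of the neuronal transcripts, in the tissue or in reads from other libraries, and their part in the Scd2 values were not tested. Th and Dbh, genes of catecholamine synthesis in the adrenal medulla that were chosen after their values were seen, had 200 and 124 estimated counts in RF.SAAR mouse 3. They had 38 and 34 in HF.SAAR mouse 3 and 3 or fewer in every other mouse. Scd2 in these 2 mice was 7.96 and 7.49 CPM, within the range of the others.

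**Figure D5:**
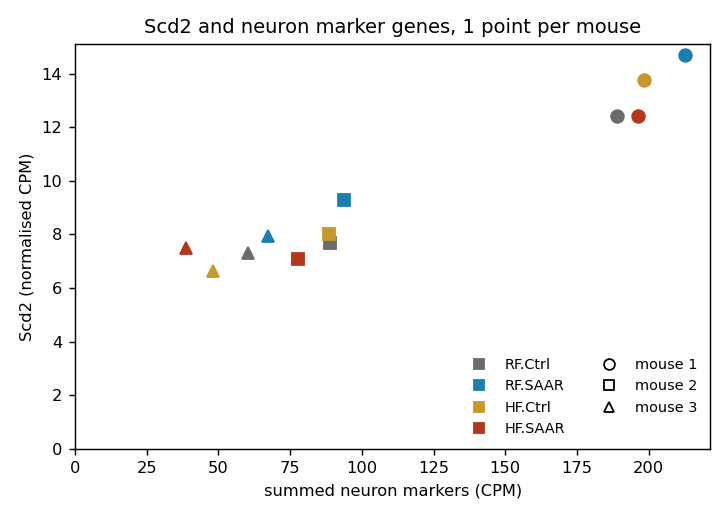
Normalised CPM of Scd2 against the summed CPM of 17 neuron marker genes, 1 point per mouse, coloured by group and shaped by mouse number. The 4 mice numbered 1 lie apart at 189 to 213 CPM of markers and 12.4 to 14.7 CPM of Scd2, with 1 mouse from each group.

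The exact permutation test of the main effects, which exchanged diet labels within fat levels and fat labels within diets, was run on log2 CPM of each gene and each factor, 16 tests in all. It used 400 relabelings and could give no p under 0.005. For SAAR versus Ctrl the two-sided p was 0.015 for Fads1, 0.025 for Fads2 and 0.025 for Elovl2, with mean log2 differences of 0.45, 0.50 and 0.28. For HF versus RF it was 0.01 for Elovl3 and 0.015 for Elovl5, with differences of -0.88 and -0.55. The other 11 tests gave p of 0.22 or more.

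Counted over the 8 genes, 6 had a positive log2 fold change in HF.SAAR versus HF.Ctrl and 7 had a negative one in HF.Ctrl versus RF.Ctrl. The medians were 0.39 and -0.34, beside -0.0014 and 0.0015 over all tested genes. These comparisons share the HF.Ctrl mice. In HF.Ctrl versus RF.Ctrl edgeR called 0% of all tested genes, 3.59% or 526 of which had an unadjusted p under 0.05, and DESeq2 called 31, with 0 of the 8 among them. In that comparison 4 of the 8 genes, Fads1, Elovl2, Elovl3 and Elovl5, had an unadjusted p under 0.05, all with lower values in HF.Ctrl. In RF.SAAR versus RF.Ctrl 5 of the 8 were positive with a median of 0.15, beside -0.0014 over all tested genes.

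Of 6 tested genes among the other desaturases and elongases, Elovl6 was lower in RF.SAAR than in RF.Ctrl. Scd1 and Elovl6 were lower in SAAR over both fat levels. Of all tested genes, 1.48% were called in RF.SAAR versus RF.Ctrl and 6.91% over both fat levels. Scd1, the main delta-9 desaturase of liver, had 1245, 992 and 1077 CPM in RF.Ctrl and 159, 114 and 401 CPM in RF.SAAR. It had 69.1, 90.6 and 69.3 CPM in HF.Ctrl and 30.8, 41.1 and 17.6 CPM in HF.SAAR, so the 4 groups did not overlap. The share of all genes with 4 separate groups was not counted. Scd1 was called neither in RF.SAAR versus RF.Ctrl nor in HF.SAAR versus HF.Ctrl. Its log2 fold change over both fat levels was -1.83 ± 0.33 with an adjusted p of 0.0118, and over both diets it was -3.38 ± 0.35 in HF versus RF with an adjusted p of 0.0203. Elovl6, which extends palmitate to stearate, had a log2 fold change of -0.59 ± 0.13 over both fat levels with an adjusted p of 0.0199. The Elovl6 value averages -0.87 ± 0.19 on regular fat (adjusted p of 0.0404) and -0.30 ± 0.19 on high fat (adjusted p of 0.598).

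In SAAR versus Ctrl over both fat levels 6.91% of all tested genes were called and 3.21% were called higher. The median there of 9 tested genes of the elongation cycle and its electron donors was 0.09, beside -0.0039 over all tested genes. Of these 9, 1 was called. That gene, Cyb5r3, the reductase that passes electrons to cytochrome b5, was lower, with -0.32 ± 0.06 with an adjusted p of 0.00713. Hsd17b12, the ketoreductase of the elongation cycle, had a value of -0.22 ± 0.07 with an adjusted p of 0.0776. Among 13 genes of peroxisomal chain shortening, which completes docosahexaenoic acid, Scp2 and Acox3 were lower and Ehhadh was higher over both fat levels. Scp2, a thiolase and lipid carrier, changed by -0.53 ± 0.07 with an adjusted p of 0.000861, and Ehhadh, a bifunctional enzyme, by 0.48 ± 0.12 with an adjusted p of 0.0303. The Ehhadh value averages 0.91 ± 0.17 on regular fat (adjusted p of 0.01854) and 0.05 ± 0.17 on high fat (adjusted p of 0.958), with an interaction of -0.86 ± 0.24 that had an unadjusted p of 0.00334 and an adjusted p of 0.999.

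Of 21 tested genes of fatty acid activation, acylation and transport, 2 were higher and 3 lower in SAAR over both fat levels. Of all tested genes, 6.91% were called in this comparison and 3.21% were called higher. Agpat3, an acyltransferase that uses polyunsaturated acyl groups, was higher by 0.28 ± 0.07 with an adjusted p of 0.0373, and the fatty acid carrier Cd36 by 0.65 ± 0.12 with an adjusted p of 0.0057. The acyl-CoA synthetases Acsl1, Acsl5 and Slc27a5 were lower, with -0.32 ± 0.08, -0.38 ± 0.06 and -0.43 ± 0.07. Acsl1 had -0.05 ± 0.11 on regular fat and -0.58 ± 0.11 on high fat, with an unadjusted interaction p of 0.00428 and an adjusted one of 0.999. Of 13 tested oxygenases and hydrolases that act on polyunsaturated acids and their epoxides, 1 was higher and 4 were lower. Ephx1, the microsomal epoxide hydrolase, was higher by 0.70 ± 0.07 with an adjusted p of 9.381e-05, and Ephx2, the soluble one, was lower, with -0.46 ± 0.10 with an adjusted p of 0.0146. Ephx2 had -0.17 ± 0.14 on regular fat and -0.75 ± 0.14 on high fat, with an unadjusted interaction p of 0.0129 and an adjusted one of 0.999. The other 3 that were lower were Cyp4f14, Cyp2j5 and Cyp2j6.

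Among the 23 tested regulators, Srebf1 was lower and Ppargc1a was higher in SAAR over both fat levels. Of all tested genes, 6.91% were called in this comparison and 3.21% were called higher. Srebf1, which encodes SREBP-1c, changed by -0.80 ± 0.16 with an adjusted p of 0.0121. Fads1 and Fads2, which are among the known targets of SREBP-1c, were higher in the same comparison. A link between these values was not tested. Ppargc1a, a coactivator of fasting metabolism, changed by 0.79 ± 0.16 with an adjusted p of 0.0107, which averages 0.39 ± 0.22 on regular fat and 1.18 ± 0.23 on high fat, with an unadjusted interaction p of 0.0272 and an adjusted one of 0.999. Ppara and Insig1 were not called, with 0.19 ± 0.15 and -0.04 ± 0.15. Of 19 tested SREBP-1c and LXR targets other than the 8 genes, 1 was higher and 3 were lower, with a median of 0.02. Acacb was higher by 0.48 ± 0.12 with an adjusted p of 0.0234, which averages -0.03 ± 0.16 on regular fat (adjusted p of 0.972) and 0.99 ± 0.17 on high fat (adjusted p of 0.0079). Its interaction was 1.02 ± 0.23, with an unadjusted p of 0.000655 and an adjusted p of 0.739. Scd1, Elovl6 and Pklr were lower, and Fasn was not called, with -0.38 ± 0.17 and an adjusted p of 0.216.

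In SAAR versus Ctrl over both fat levels 6.91% of all tested genes were called and 3.21% were called higher. Of 26 PPARA targets, 8 were higher and 1 was lower there, with a median of 0.30 beside -0.0039 over all tested genes. The higher ones included Cyp4a14, a fatty acid omega-hydroxylase, with 3.97 ± 0.51 and an adjusted p of 0.00277, and Fgf21, a hepatic hormone of amino acid shortage, with 4.07 ± 0.54 and an adjusted p of 0.00295. Acot1, a cytosolic thioesterase, had 0.95 ± 0.41 with an adjusted p of 0.239. On regular fat 4 of the 26 targets were called higher, with a median of 0.46, where 1.48% of all tested genes were called. On high fat 1 was called higher (Fgf21), with a median of 0.17, where 1.97% of all tested genes were called. Of the 26 interaction values 23 were negative and 0 were called. These lists were chosen with earlier results of the same data known, so their counts describe these mice.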

How the data were processed

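Poly(A) RNA of 12 livers was sequenced in pairs. The authors trimmed reads with cutadapt and assigned them to Ensembl mouse transcripts with kallisto. The deposited estimated counts are the number of read pairs assigned to each transcript, with shared reads divided by the algorithm, and the deposited TPM are these counts per effective length, scaled so that all mice have an equal sum. Neither is normalised between mice. Of 118489 transcripts, 116816 matched the GENCODE annotation of GRCm38, and 1.08% of counts did not. Counts were summed per gene, rounded and fitted with edgeR 4.0.16 in R 4.3.3 (filterByExpr by group, TMM, 1 coefficient per group over all 12 mice, robust quasi-likelihood F-test, Benjamini-Hochberg adjustment over 14670 genes). The study's own tool was DESeq2, run here as an alternative (1.42.0). The SE is the log2 fold change divided by the square root of F. The contrasts were the 4 between groups, the interaction and both main effects. The fit was tested on simulated data.

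Groups come from the labels, in which the fields for diet and for fat content hold each other's values. The labels give no replicate numbers. All 8 members are named, with list genes that were called and 10 genes given whatever they did. Transcripts with at least 5% of a gene's counts are described, and likeness was searched among genes with a mean of at least 10 CPM. The members and gene lists were chosen with earlier results of these data known, and the neuron list after its values were seen. Promoter windows are from RefSeq. Alternatives were other scaling (RLE, library size, effective-length offsets), filters, DESeq2, fits of fewer groups, a fit without the robust option, transcript counts, leaving out mice, and handling of acinar markers. Precision comes from the spread between mice, since estimated counts without molecular identifiers are not independent molecules.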

Additional observations from a re-analysis of the deposited data

How the results depend on the processing

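Of the 56 log2 fold changes of the 8 genes, 28 were at least 1 SE from 0 and none of these changed sign under any alternative. Of the 28 within 1 SE of 0, 22 changed sign under at least 1. Of the 8 genes, 1 was called in HF.SAAR versus HF.Ctrl (Fads1). It was 4 with library size alone, 3 with DESeq2, 2 with a replicate block by title order, 0 with the most abundant transcript of each gene, 0 without the 3 libraries highest in acinar markers, and 0 to 3 when 1 mouse was left out. In SAAR versus Ctrl over both fat levels it was 2 (Fads1 and Fads2), and 3 with library size alone, with at least 10 counts in every mouse, with DESeq2 and with the replicate block, 1 with no low-count filter, 0 with the most abundant transcript, 0 without those 3 libraries, and 1 to 3 when 1 mouse was left out. In HF.SAAR versus RF.SAAR it was 0, and 1 with DESeq2. In HF versus RF it was 0, and 2 with DESeq2 and 1 (Elovl5) with the replicate block. The cause was not tested. DESeq2 also called more of all tested genes than edgeR in HF versus RF, as given with Elovl5. The share of all genes called in each alternative is not set beside these counts. They therefore only describe how the calls of the 8 genes moved. Library size alone moved the median of all genes by 0.17 in SAAR versus Ctrl over both fat levels. With the fits that left out 1 mouse included, Fads1 was called in 19 of 24 alternatives for HF.SAAR versus HF.Ctrl and Fads2 in 3. Over both fat levels, Fads1 was called in 21 of 23 and Fads2 in 10. The most abundant Fads1 transcript held 98.8% of its counts, and p-values in that fit were adjusted over all transcripts tested. On log2 TPM, the main effect of SAAR on Elovl3 was 0.27 instead of -0.03, where the median of all genes was moved by 0.28. The replicate block was added after the data were seen. Same-numbered mice had correlations of their deviations from -0.11 to 0.35, over 0.1 in 13 of 18 pairs, and the labels give no such numbers, so the block was kept as an alternative.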
